A study of Mus musculus with 8 samples.

Results

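Crisp2, Fscb and St6galnac2, listed as crisp2, fscb and st6galnac2 in the deposited tables, were chosen by measured values: they were picked for the large shortening of their poly(A) tails in testes of busulfan-treated mice. All transcripts with 1 of these 3 symbols were taken, which gave 8 of the 2783 transcripts (5 of Crisp2, 1 of Fscb and 2 of St6galnac2) and 2509 of 621202 reads. Because busulfan against vehicle was the contrast behind the choice, the tails and read numbers of that contrast are given as a description, without a test.

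Poly(A) RNA of whole testes from adult male mice was sequenced directly on Nanopore chips, so that each read is 1 RNA molecule with its own tail length in nucleotides (nt). The 4 groups were Tent5c wt/wt (wt) and Tent5c dcat/dcat (dcat) mice, each given vehicle or a single injection of busulfan at 20 mg/kg 4 weeks before the testes were taken, with 2 mice, and so 2 libraries, per group. TENT5C is a cytoplasmic enzyme that extends poly(A) tails, and dcat mice carry in both copies an allele whose product lacks catalytic activity. Busulfan alkylates DNA and depletes the testis of its proliferating germ cells, whereas somatic cells of the testis and germ cells already past division are spared at first. Replicates 1 and 2 are the 2 multiplexed libraries of the study, each of which held 4 barcoded extracts, 1 mouse per group. The dcat allele leaves a transcript, and Tent5c had 18 to 115 reads in the 8 libraries, so that read numbers cannot check the genotype.

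Total reads ranged from 29574 (dcat vehicle replicate 1) to 129074 (dcat vehicle replicate 2). They cover only transcripts that passed the study's read filter, so a listed gene not read may have had few reads. Over all reads the mean tail was 134 to 144 nt in the vehicle and 111 to 115 nt in the busulfan libraries, and mitochondrial transcripts took 4.38% to 6.08% and 14.0% to 16.2% of reads. Markers of late spermatids (16 of 16 genes read) summed to 95929 to 121337 counts per 1e6 reads (CPM) in the vehicle libraries. After busulfan the sums were 9538 and 13247 CPM in wt mice, and 22283 and 39586 CPM in dcat mice. Markers of Leydig cells (8 of 9 read) summed to 3665 to 6594 CPM after vehicle. After busulfan they reached 41013 and 45952 CPM in wt mice, and 21293 and 25438 CPM in dcat mice, the reverse order of the genotypes. Insl3 had the most read transcript of the 8 (9464 reads). It was the only 1 of them called between genotypes after busulfan by edgeR (log2 ratio of dcat to wt -1.18, adjusted p = 0.0299). The median log2 ratio of the 8 was -0.14, so the order of the sums does not hold for the list as a whole. In these bulk samples, fewer cells of a type and less RNA per cell cannot be told apart.

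The poly(A) tail is added to a new transcript in the nucleus and is trimmed or extended in the cytoplasm. Spermatids store many of their transcripts for days, since transcription stops as the nucleus condenses, and changes of tail length accompany the storage and later use of such transcripts. Crisp2 encodes a cysteine-rich secretory protein of the CAP superfamily found in the acrosome and the sperm tail. Fscb encodes a fibrous sheath protein that binds CABYR in the principal piece of the sperm tail. St6galnac2 encodes a Golgi sialyltransferase that adds sialic acid to O-linked glycans.

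The annotated 3′ ends of the transcripts are shown first, because a tail is measured at the 3′ end and the Crisp2 transcripts did not all share one. In GENCODE release 21 for mouse (genome build GRCm38), all 8 transcripts lie on the minus strand. Crisp2-201 (10 exons, chr17:40764734-40794115, 650 reads) was the most read Crisp2 transcript, followed by Crisp2-207 (370 reads), Crisp2-206 (337), Crisp2-208 (155, annotated as a target of nonsense-mediated decay) and Crisp2-203 (71). Crisp2-201, Crisp2-207 and Crisp2-208 end within 2 nt of each other, and Crisp2-206 runs 714 nt further in the same last exon. Crisp2-203 ends 20185 nt upstream of Crisp2-201, in a last exon of its own that shares 0 bases with that of Crisp2-201. Fscb-201 is a single exon (chr12:64471330-64474690, 159 reads). St6galnac2-201 (9 exons, chr11:116675303-116694868, 408 reads) and St6galnac2-204 (2 exons, a processed transcript without an annotated coding part, 359 reads) end 586 nt apart in one last exon. A read that covers only the shared 3′ part was given to 1 of these transcripts by the aligner, so transcripts of a gene with the same end are not independent. The 30-base windows below, from the transcript strand in the 5′ to 3′ direction, lie in the last exons, with the polyadenylation signal AATAAA in capitals where the last 50 bases held it (the copy nearest the end where there were 2).
Crisp2-201 (chr17:40764737-40764766, shared with Crisp2-207 and Crisp2-208): cacttctttcAATAAAgaactcaagctacc
Crisp2-206 (chr17:40764020-40764049): gagagaaaaatatatgtttgttctttctcc
Crisp2-203 (chr17:40784940-40784969): tgaataaatgAATAAAttcaaccctaacag
Fscb-201 (chr12:64471333-64471362): ttggacaatgAATAAAagcagtcacaatgt
St6galnac2-204 (chr11:116675889-116675918): tgctttaagtgacaagtaaattttagcaag

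The letters AATAAA were followed by 17 bases in Crisp2-201 and Fscb-201 and by 35 bases in Crisp2-203, which held 2 copies. They were not in the last 50 bases of Crisp2-206 or St6galnac2-204, and 65.2% of the 2738 transcripts found in the annotation held them there. ATTAAA in the last 50 bases (17.1% of all transcripts), and TTTTAT (10.2%) and TGTANATA (2.85%) in the last 100, searched on the transcript strand only, were in none of the Crisp2 and Fscb transcripts and not in St6galnac2-204.

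Crisp2 tails were long in vehicle testes and short in wt busulfan testes. Over all Crisp2 reads, the median tail was 172 and 173 nt in the wt vehicle libraries (replicates 1 and 2) and 154 and 179.6 nt in the dcat vehicle libraries. After busulfan it was 40.9 and 37.7 nt in wt and 66.2 and 94.8 nt in dcat libraries. Both vehicle groups thus lay above both busulfan groups, and both dcat busulfan libraries lay above both wt busulfan libraries. How many other genes had this order of genotypes was not determined. The most populated 10-nt bin was centred at 175 to 205 nt in the vehicle libraries and at 35 to 45 nt in the busulfan libraries, dcat included, so that a long and a short class of tails were present. In wt vehicle libraries 72.1% (Wilson 95% interval 65.2% to 78.1%) and 74.5% (69.3% to 79.1%) of Crisp2 reads had tails of 120 nt or more. In wt busulfan libraries these were 2 of 56 reads, 3.57% (0.985% to 12.1%), and 12 of 161 reads, 7.45% (4.31% to 12.6%). The dcat busulfan libraries kept more of the long class, with 26.5% (18.2% to 36.9%) and 44.4% (36.3% to 52.9%), against 63.8% (54.7% to 72.0%) and 78.8% (75.2% to 82.0%) after vehicle. Tails of 30 to 60 nt made up 64.3% (51.2% to 75.5%) and 61.5% (53.8% to 68.7%) of Crisp2 reads in wt busulfan libraries, 37.3% (27.7% to 48.1%) and 28.9% (21.9% to 37.0%) in dcat busulfan libraries, and 6.53% to 10.9% in the 4 vehicle libraries.

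**Figure D1:**
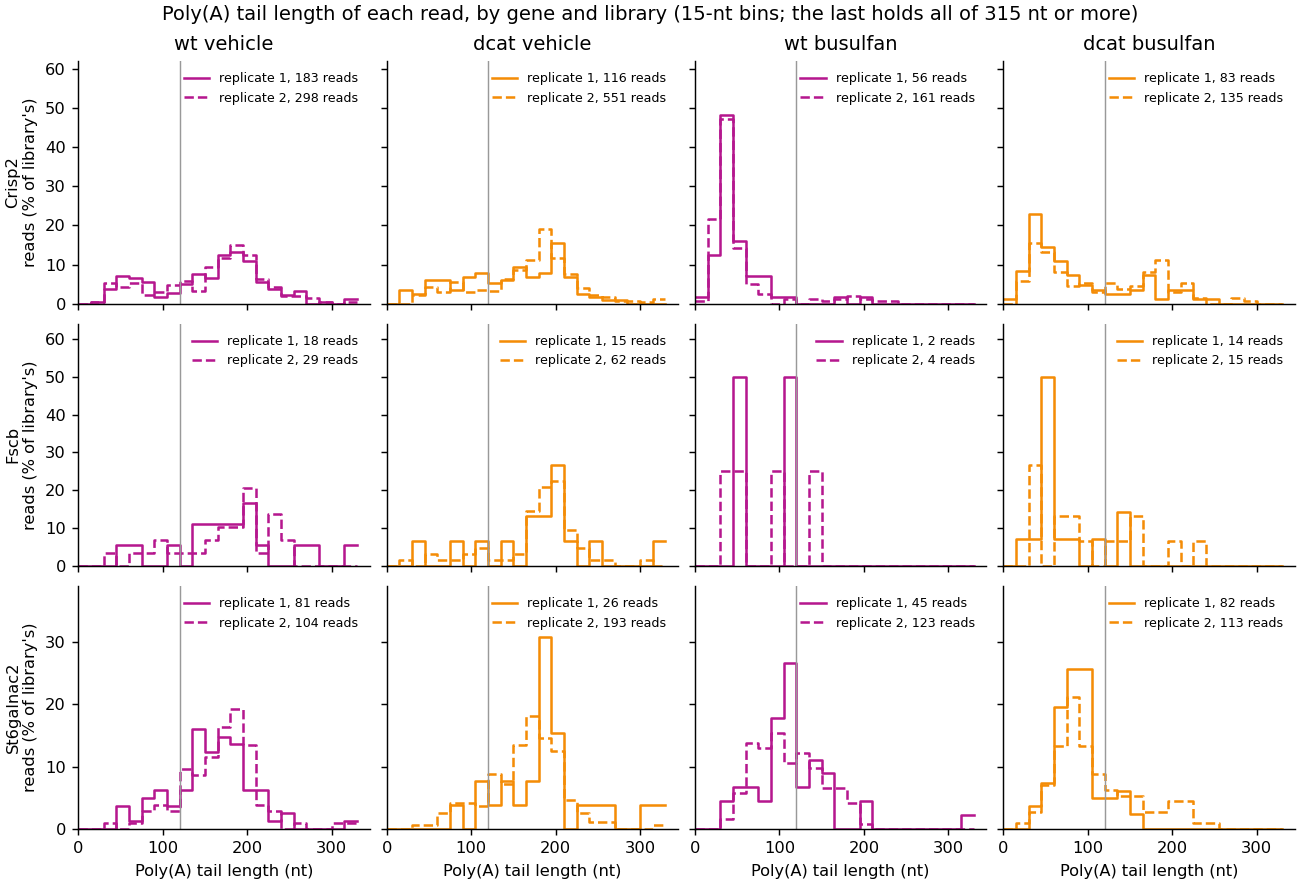
Share of the gene's reads in a library (y axis, %) in 15-nt bins of poly(A) tail length (x axis, nt) for Crisp2, Fscb and St6galnac2 in the 4 groups, with replicate 1 solid, replicate 2 dashed and a grey line at 120 nt. Crisp2 reads have 2 classes of tails, of which the long one holds 2 and 12 reads in the wt busulfan libraries, while the single peak of St6galnac2 lies at shorter tails in both busulfan groups.

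By transcript, the mean tail of Crisp2-201 after vehicle was 149.7 and 163 nt in wt mice and 131 and 166 nt in dcat mice. After busulfan the wt mice had 54.9 and 46.1 nt and the dcat mice 106 and 112 nt. The genotypes overlapped after vehicle and did not overlap after busulfan. The share of all transcripts without overlap between genotypes was not determined. Crisp2-207, which has the same end, had vehicle means of 162 and 157 nt (wt) and 138 and 166 nt (dcat), and busulfan means of 36.8 and 43.3 nt (wt) and 68.5 and 98.0 nt (dcat). Its highest wt busulfan read in replicate 1 had a tail of 71 nt, and 0 of the 16 reads there reached 120 nt, with a Wilson upper bound of 19.4%. The further-reaching Crisp2-206 had vehicle means of 159.6 and 144 nt (wt) and 148 and 169 nt (dcat), against busulfan means of 55.7 (6 reads) and 61.9 nt (wt) and 84.8 and 115 nt (dcat). Crisp2-208 had vehicle means of 169 and 181 nt (wt) and 165 and 174 nt (dcat), against busulfan means of 54.2 (2 reads) and 48.3 nt (wt) and 66.7 (4 reads) and 117 nt (dcat). For these 4 transcripts every busulfan library was below every vehicle library, the wt libraries by the wider margin. In wt testes the busulfan-minus-vehicle difference of Crisp2-201 was -106 nt, and in dcat testes -40.0 nt, beside medians of -19.9 nt over 527 and -17.2 nt over 441 transcripts with at least 10 reads in all 4 libraries of a genotype. In wt testes both busulfan means were below both vehicle means for 63.2% of those transcripts, and for 63% in dcat testes, so that the direction was that of most transcripts measured.

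Crisp2-203, with its upstream end, was the exception among the 8. After vehicle its mean tail was 158 and 156 nt (wt) and 144 and 158 nt (dcat). Only 8 of its reads came from busulfan libraries. The 3 wt busulfan reads, all of replicate 2, had tails of 117, 144 and 194 nt, and the 5 dcat busulfan reads had tails of 127 to 218 nt. None of these 8 reads was under 100 nt. At the end of Crisp2-201, Crisp2-207 and Crisp2-208, 163 of 172 wt and 100 of 163 dcat busulfan reads were under 100 nt, and at the end of Crisp2-206 37 of 42 wt and 27 of 50 dcat busulfan reads were. The wider contrast is thus that of the wt mice, where the upstream end has 3 reads of 1 library, and the difference between ends was not tested. Crisp2-203 had 31 reads in wt vehicle libraries together, a ratio of vehicle to busulfan of 15.3 relative to all reads (exact binomial 95% interval 4.76 to 78.0, counting error only), and 32 against 5 reads in dcat libraries (6.38, 2.47 to 21.0). In wt busulfan replicate 1 it had 0 reads, which allows up to 45.4 CPM.

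**Figure D2:**
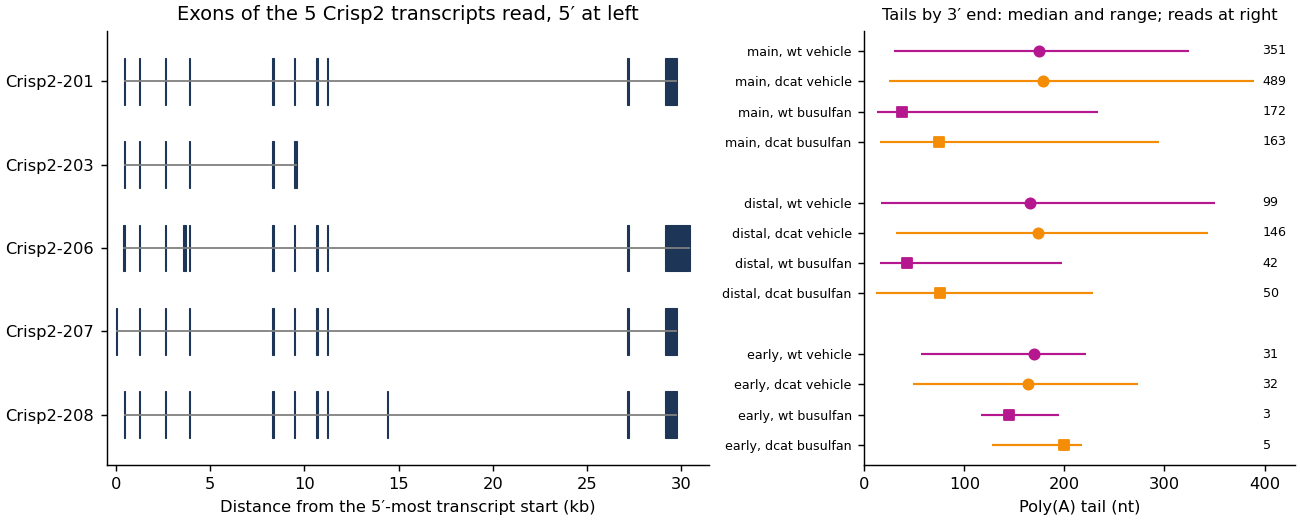
Left, exons (boxes) of the 5 Crisp2 transcripts along the distance from the 5′-most transcript start (x axis, kb). Right, median (symbol) and range (line) of the poly(A) tails (x axis, nt) of the reads pooled within each group by 3′ end, where main stands for Crisp2-201, Crisp2-207 and Crisp2-208, distal for Crisp2-206 and early for Crisp2-203, with the number of reads at the right. The 3 and 5 busulfan reads of the early end lie between 117 and 218 nt, while the medians of the main and distal ends are 37.3 and 42.9 nt in wt and 74.9 and 76.0 nt in dcat busulfan testes, whose ranges cover those of the early end.

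**Figure D3:**
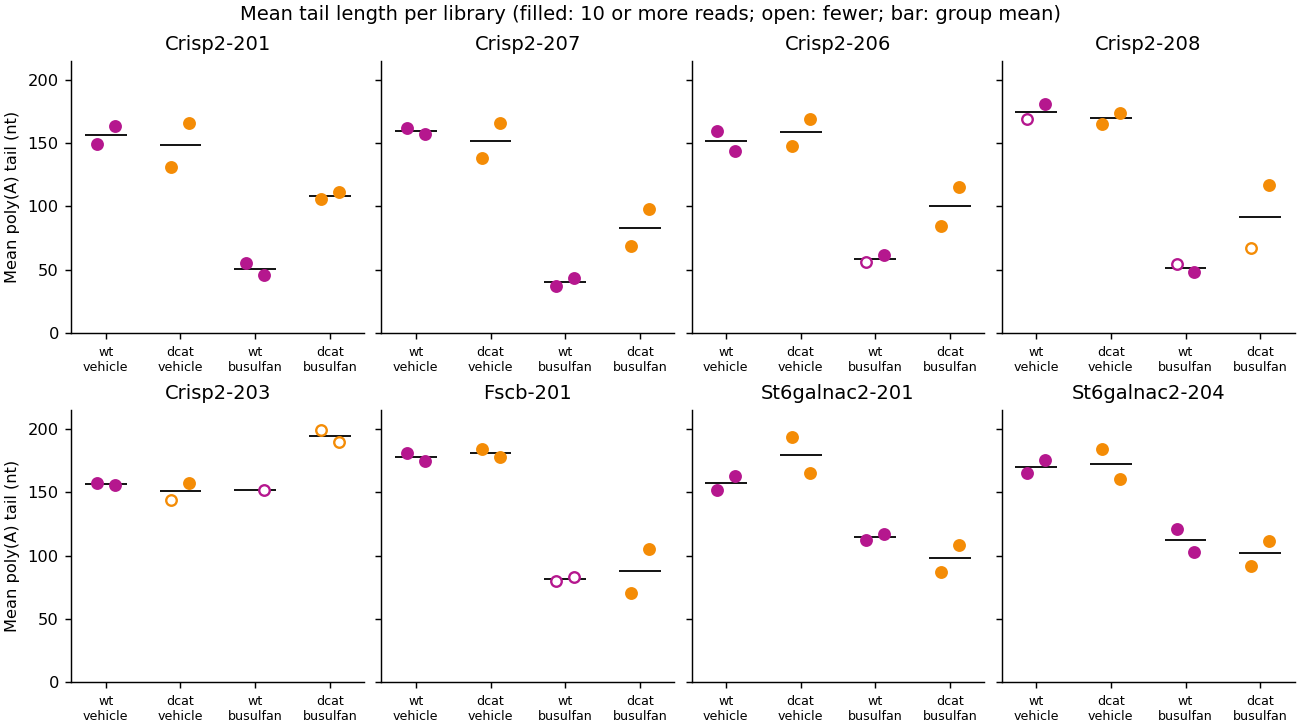
Mean poly(A) tail (y axis, nt) of the 8 transcripts in each library by group, wt in magenta and dcat in orange, filled with 10 or more reads and open with fewer; bars are the means of the group's libraries. In wt busulfan testes the 4 Crisp2 transcripts other than Crisp2-203 lie between 36.8 and 61.9 nt, and the same transcripts lie between 66.7 and 117 nt in dcat busulfan testes.

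Fscb had the longest mean tails of the 3 genes in wt vehicle testes and few reads after busulfan. After vehicle the mean tail was 181 and 174 nt in wt mice (18 and 29 reads) and 184 and 178 nt in dcat mice (15 and 62 reads). After busulfan it was 79.9 and 83.4 nt in wt mice (2 and 4 reads) and 70.1 and 105 nt in dcat mice (14 and 15 reads). All busulfan libraries were below all vehicle libraries, and the 2 busulfan groups overlapped. The difference between busulfan and vehicle was -96.1 nt in wt testes, where it rests on 6 busulfan reads, and -93.6 nt in dcat testes, the largest shortening there among 441 transcripts. Since the members were chosen for large shortening, a high rank was built into the choice. Reads of 120 nt or more were 15 of 18 and 23 of 29 in wt vehicle libraries and 0 of 2 and 1 of 4 in wt busulfan libraries. In dcat libraries they were 12 of 15 and 52 of 62 after vehicle and 2 of 14 and 6 of 15 after busulfan. Relative to all reads and over both libraries, Fscb was 11.6 times as abundant in wt vehicle as in wt busulfan testes (exact binomial 95% interval 4.94 to 33.1) and 2.65 times in dcat testes (1.71 to 4.21). These intervals pool the reads of both mice, cover counting error only and are not a test.

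St6galnac2 tails were of intermediate length after busulfan. The median tail over both transcripts after vehicle was 161 and 174 nt in wt mice and 189.8 and 170.1 nt in dcat mice. After busulfan it was 110.0 and 106 nt in wt mice and 88.0 and 96.7 nt in dcat mice, so that every busulfan median was below every vehicle median. Both dcat busulfan medians were below both wt ones, but the busulfan means of St6galnac2-204 overlapped between genotypes. Neither transcript passed the genotype test given below, and the share of all transcripts so separated between genotypes was not determined. Tails of 30 to 60 nt, the class that held most Crisp2 reads in wt busulfan testes, were 11.1% (Wilson 4.84% to 23.5%) and 7.32% (3.90% to 13.3%) of St6galnac2 reads there. By transcript, St6galnac2-201 had vehicle means of 152 and 163 nt (wt) and 194 and 166 nt (dcat), and busulfan means of 113 and 117 nt (wt) and 86.6 and 109 nt (dcat). St6galnac2-204 had vehicle means of 165 and 175 nt (wt) and 184 and 161 nt (dcat), and busulfan means of 121 and 103 nt (wt) and 92.0 and 111 nt (dcat). In each library the means of the 2 transcripts, which end 586 nt apart, were within 14.2 nt of each other. The busulfan-minus-vehicle difference of St6galnac2-201 was -42.6 nt in wt testes, rank 84 of 527 transcripts ordered by shortening, and -82.0 nt in dcat testes, rank 2 of 441. Crisp2-201 had the opposite order, rank 3 in wt and rank 63 in dcat testes. These ranks describe the contrast on which the members were chosen, and high ones are no separate result.

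Set against library size, the short-tailed reads of Crisp2 were about as frequent after busulfan as after vehicle, while the long-tailed reads were fewer. Crisp2 reads under 120 nt had 1005 and 1054 CPM in wt vehicle and 818 and 1291 CPM in wt busulfan libraries. Crisp2 reads of 120 nt or more had 2601 and 3077 CPM in wt vehicle and 30.3 and 104 CPM in wt busulfan libraries, a ratio of means of 42.3. In dcat testes the long-tailed reads had 2502 and 3362 CPM after vehicle and 358 and 620.5 CPM after busulfan (ratio 5.99), and the short-tailed ones 1420 and 906 CPM after vehicle and 992 and 776 CPM after busulfan. For St6galnac2 the short-tailed reads were more frequent after busulfan. They had 315 and 166 CPM in wt vehicle and 454 and 641 CPM in wt busulfan libraries, and 101 and 232 CPM in dcat vehicle and 1155 and 786 CPM in dcat busulfan libraries, while the long-tailed reads were 3.92 and 3.63 times less frequent. All St6galnac2 reads together had 1596 and 1442 CPM (wt) and 879 and 1495 CPM (dcat) after vehicle, against 681 and 1066 CPM (wt) and 1334 and 1169 CPM (dcat) after busulfan, and the latter dcat values lay within the range of the dcat vehicle values. The fitted log2 ratio of busulfan to vehicle reads was -1.56 in wt and -1.37 in dcat testes for Crisp2-201, -3.49 and -1.37 for Fscb-201, and -0.88 and -0.05 for St6galnac2-201. The medians over all 2783 transcripts were 0.09 and 0.14. CPM values are relative to libraries with more mitochondrial and Leydig cell reads after busulfan, and the part of this in the ratios was not tested.

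**Figure D4:**
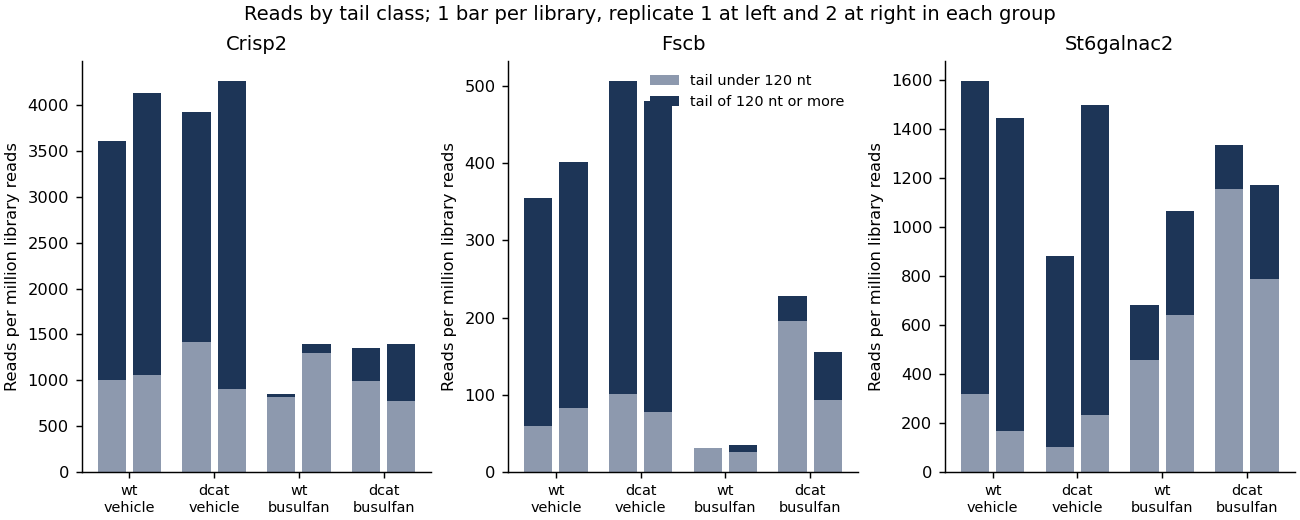
CPM (y axis) of Crisp2, Fscb and St6galnac2, 1 bar per library, split into tails under 120 nt (grey) and of 120 nt or more (dark blue). Grey bars of Crisp2 have a similar height in all groups (776 to 1420 CPM), whereas those of St6galnac2 are higher in the 4 busulfan libraries (454 to 1155 CPM) than in the 4 vehicle libraries (101 to 315 CPM).

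Whether tails differed without TENT5C activity was asked by comparing dcat with wt within each treatment, by limma on mean tails of transcripts with 10 or more reads in every library of the comparison. This comparison uses libraries that also entered the choice of the members, so that a difference in it is not independent support. After vehicle, 6 of the 8 transcripts could be tested and 0 passed an adjusted p of 0.05, beside 1 of 720 transcripts (0.139%), and 34 of the 720 had an unadjusted p under 0.05. The differences ran from -7.90 nt (Crisp2-201, SE 8.73) to 22.2 nt (St6galnac2-201, SE 9.94), each with an adjusted p of 0.989. Both rested on dcat vehicle replicate 1, the library with the fewest reads. Crisp2-201 gave -25.6 nt (adjusted p = 0.0192) and St6galnac2-201 36.2 nt (adjusted p = 0.0226) with it as the only dcat library, and 9.76 nt (0.998) and 8.06 nt without it. After busulfan, 4 of the 8 could be tested and 1 passed, beside 16 of 1188 transcripts (1.35%), of which 4 were longer and 12 shorter in dcat testes. For Crisp2-201 the wt mean was 50.5 ± 6.27 nt and the dcat mean 109 ± 4.40 nt (SD, n = 2 libraries), which was 58.1 nt longer (SE 8.69, adjusted p by limma = 5.71e-04). The difference was 53.7 to 62.6 nt with each library left out in turn, and the adjusted p was 3.79e-07 to 0.0806 over 10 alternatives. It missed the threshold only where eBayes was run without the trend on read number (adjusted p = 0.0806), in which 0 of the 7 calls were longer in dcat testes. Germ cell markers differed between the same libraries, with late spermatid markers at 9538 and 13247 CPM in wt and 22283 and 39586 CPM in dcat mice, and their part in the result was not tested. Of the 8 late spermatid genes whose tails could be tested, 1 was longer and 2 were shorter in dcat testes. The longer one was Oaz3, by 53.1 nt (limma adjusted p = 1.46e-04), a difference near that of Crisp2-201. The shorter ones were Odf1, by -50.1 nt (limma adjusted p = 0.0066), and Tppp2, by -53.0 nt (limma adjusted p = 0.0135).

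Crisp2-207 differed in the same direction, by 43.2 nt (SE 12.6, limma adjusted p = 0.152), and passed with the replicate block (adjusted p = 0.0372), a setting that raised the calls over all transcripts from 16 to 27. It also passed without dcat busulfan replicate 1, at 57.9 nt (limma adjusted p = 0.0255). With the reads of all transcripts of a gene pooled, Crisp2 differed by 49.7 nt (SE 6.97, limma adjusted p = 3.79e-06), beside 18 of 1083 genes or unnamed transcripts called (1.66%). Crisp2-206 and Crisp2-208 had too few wt busulfan reads for the test. Each had both dcat means above both wt means, an order whose share over all transcripts was not determined. St6galnac2-201 was 17.3 nt shorter in dcat than in wt busulfan testes on average, 97.7 ± 15.6 against 115 ± 3.30 nt, and did not pass (SE 9.48, limma adjusted p = 0.727). Fscb was not tested because wt busulfan libraries had 2 and 4 reads, and its group means of 81.6 and 87.6 nt differed by less than the SD of the dcat libraries (24.7 nt).

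The number of reads was compared between genotypes with edgeR over all 2783 transcripts. After vehicle, 0 of the 8 transcripts and 0 of 2783 (0%) passed, with 65 at an unadjusted p under 0.05 and 0 calls by DESeq2. The log2 ratios of dcat to wt ran from -0.30 (St6galnac2-201) to 0.88 (Crisp2-208, SE 0.56). After busulfan, 1 of the 8 passed, beside 162 of 2783 (5.82%), and 150 of these 162 were higher in dcat testes. Fscb had 31.9 ± 8.12 CPM in wt and 194 ± 43.7 CPM in dcat testes (SD, n = 2 libraries, scaled by the trimmed mean of M values, TMM), a log2 ratio of 2.48 (SE 0.63, edgeR adjusted p = 0.0217). It had 2 and 4 reads in wt and 14 and 15 reads in dcat busulfan libraries, a ratio of 5.55 relative to all reads (exact binomial 95% interval 2.26 to 16.3, counting error only). DESeq2 gave a log2 ratio of 2.43 and an adjusted p of 0.0452. The call was lost without wt busulfan replicate 1 (2.29, adjusted p = 0.212), without wt busulfan replicate 2 (2.79, 0.140) and without dcat busulfan replicate 2 (2.72, 0.0698). The other 7 had log2 ratios of 0.09 (Crisp2-201) to 0.92 (Crisp2-203) and adjusted p of 0.525 or more, and Crisp2-201 changed sign with relative log expression (RLE) scaling, which moved the median of all transcripts from 0.20 to 0.06. The summed level of the late spermatid markers moved with the Fscb result, at 9538 and 13247 CPM in wt and 22283 and 39586 CPM in dcat mice after busulfan. Of the 16 markers, 9 were called higher in dcat and 0 lower, and 1 was at 0 in wt busulfan replicate 1. Odf1 (log2 ratio -0.97), Cabs1 (-0.50), Oaz3 (-0.30) and Smcp (-0.29) pointed the other way and were not called. Round spermatid markers (6 of 10 read) summed to 30.3 and 173 CPM in wt and 488 and 786 CPM in dcat busulfan libraries, and spermatocyte markers (5 of 10 read) to 833 and 1040 CPM and 1789 and 3547 CPM. Of these 5 spermatocyte genes, 2 were called higher in dcat testes. Ldhc had the most read transcript of the 5 and, like Pgk2, is also among the fibrous sheath genes examined below. Sycp3 had a log2 ratio of 0.77 and was not called (edgeR adjusted p = 0.497). Erythroid markers (2 of 4 read) went the other way, with 771 to 924 CPM in wt and 0 to 20.7 CPM in dcat busulfan libraries. They had the same order after vehicle, with 177 and 291 CPM in wt and 135 and 15.5 CPM in dcat libraries. The sums of the germ cell lists were thus higher in the same libraries in which Fscb was higher and Crisp2-201 tails were longer. The part of these lists in both results, and that of the erythroid and Leydig lists, was not tested.

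Other genes of the same structures and pathway were examined by their most read transcript. Of 18 fibrous sheath genes 11 were read, and after busulfan 6 were called higher in dcat testes by edgeR and 0 lower, with a median log2 ratio of 2.13 beside 0.20 over all transcripts, of which 5.82% were called in either direction. These calls come from the comparison whose 162 calls became 7 without wt busulfan replicate 1, 15 without wt busulfan replicate 2 and 13 without dcat busulfan replicate 2, and 360 without dcat busulfan replicate 1. Among the 6 were Gapdhs, the sperm glyceraldehyde-3-phosphate dehydrogenase (2.74, edgeR adjusted p = 0.00247), and Spa17, a sperm surface and tail protein (2.13). Gapdhs and Akap4 are also late spermatid markers, and Ldhc and Pgk2 spermatocyte markers, so that the lists are not independent. Cabyr, the partner of FSCB, had a log2 ratio of 1.12 (adjusted p = 0.676) and was not called. In the list as a whole, reads were fewer after busulfan, with median log2 ratios to vehicle of -4.13 in wt and -2.01 in dcat testes. Fscb, at -3.49 and -1.37, was between these medians and 0 in both. The median busulfan-minus-vehicle tail difference of the list was -30.6 nt over the 8 genes with enough reads in dcat testes and -35.2 nt over 4 genes in wt testes, beside -17.2 and -19.9 nt over all transcripts. Pgk2, the phosphoglycerate kinase of spermatids, had -92.9 nt (wt) and -59.5 nt (dcat), and its genotype difference after busulfan was 36.7 nt (limma adjusted p = 0.309). The tails of 0 of the 9 genes tested after vehicle and 0 of the 4 tested after busulfan passed between genotypes.

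Of 16 genes of the acrosome and of zona binding, 9 were read, with 0 called between genotypes after either treatment and median log2 ratios of busulfan to vehicle of -4.93 in wt and -2.73 in dcat testes. Their summed level was 3584 to 4512 CPM in vehicle, 90.8 and 191 CPM in wt busulfan and 277 and 879 CPM in dcat busulfan libraries. Over all its transcripts Crisp2 had 3605 to 4269 CPM after vehicle, and after busulfan 848 and 1395 CPM in wt and 1350 and 1396 CPM in dcat mice. Spaca4 had 0 reads in both wt busulfan libraries. Of 13 further CAP superfamily genes, 0 were among the transcripts. Of 27 genes of O-glycan sialylation, 3 were read, and 0 were called between genotypes for reads or tails. Galntl5, a testis member of the GalNAc transferase family, had log2 ratios of busulfan to vehicle of -5.42 in wt and -2.67 in dcat testes, while St3gal4, a further sialyltransferase, had 2.10 and 2.67, and Cmas, which activates sialic acid, had 2.03 and 1.50. St6galnac2-201, at -0.88 and -0.05, lay between them.

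The transcripts of other genes whose mean tails were most like those of the leading transcripts were found by the root-mean-square difference over libraries. For Crisp2-201 they were a pair of transcripts of Oaz3, the antizyme of spermatids (13.8 and 14.5 nt), and Pgk2 (17.2 nt), over 8 libraries and 337 candidates with a median of 38.5 nt. The first Oaz3 transcript averaged 146 nt (wt) and 147 nt (dcat) after vehicle and 66.2 nt (wt) and 119 nt (dcat) after busulfan. It was matched to Crisp2-201 on these same library means, so that a shared order of groups was built into the match. For Fscb-201, over the 6 libraries in which it had at least 10 reads and 405 candidates, they were St6galnac2-204 (13.4 nt), Chl1 (14.8 nt) and St6galnac2-201 (15.8 nt), of which both St6galnac2 transcripts had been chosen for the same shortening. For St6galnac2-201 they were Rad23b (12.1 nt), Ybx1 (13.1 nt) and Selenow (13.3 nt), over 8 libraries.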

How the data were processed

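The deposited counts were raw reads per transcript, and per the labels and the study's methods the authors used Guppy for basecalling, minimap2 (2.20-r1061 in the submitters' processing notes) for alignment to GENCODE transcripts of GRCm38 (mm10), and Deeplexicon for the barcodes. Per these methods, reads had to pass in Nanopolish, and transcripts needed at least 10 reads in at least 2 replicates of 1 condition. Library totals here are below the study's read counts after quality check. CPM values are thus relative to the reads kept, and a gene not read here may have had few reads. The deposited tail table gave 1 tail per read, in nt, estimated by Nanopolish as run by the authors, and 0 pairs of transcript and library differed between the 2 tables. Columns of the authors' own comparisons (log2 fold changes and p-values from DESeq2) were not used.

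The members, the gene and marker lists and the tests were chosen with earlier results of these data known. Named genes were the members, the listed genes by their most read transcript, and the 3 transcripts most like each leading one. Counts were compared with edgeR 4.0.16 (TMM, quasi-likelihood F test, all 8 libraries as 4 groups) and DESeq2 1.42.0 as an alternative, tails with limma 3.58.1 (eBayes with a trend on reads, at least 10 reads in each of 4 libraries), in R 4.3.3. Tests were two-sided with Benjamini-Hochberg adjustment over all transcripts tested. The threshold was 0.05. Scripts were tested on simulated data. The 3′ end sequence of 1 transcript is not reported here. Intervals of shares and of read ratios cover counting error only.

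The labels give only the replicate number. The study's methods state that a replicate number marks a shared multiplexed library, and the numbers pair the samples in that sense. In the check, deviations of the same number correlated at -0.24 to 0.29 for counts and 0.0061 to 0.062 for tails over 339 transcripts. Within a group, the spread between libraries joins that between mice and that between multiplexed libraries, which cannot be told apart. Chi-square per degree of freedom between replicates was 1.29 to 2.58.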

Additional observations from a re-analysis of the deposited data

Results flagged for a closer look

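The genotype difference of St6galnac2-201 tails pointed in opposite directions in the 2 treatments, since both dcat libraries were above both wt libraries after vehicle (by 22.2 nt on average) and below both after busulfan (by -17.3 nt). The difference between these 2 effects was not tested, and neither effect passed the threshold of limma. After vehicle the closest means were 163 nt (wt replicate 2) and 166 nt (dcat replicate 2). Without dcat vehicle replicate 1 the vehicle difference was 8.06 nt. The means of the other St6galnac2 transcript overlapped between genotypes in both treatments. The share of all transcripts with such opposite orders was not determined.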

How the results depend on the processing

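The 2 libraries per group, and 2 to 4 Fscb reads per wt busulfan library, limit what these data can show. The number of transcripts with different tails after vehicle was 1, and 0 with median tails, without the eBayes trend and with the replicate block, and 0 to 9 with a library left out. After busulfan it was 16, and 29 with median tails, 9 with at least 20 reads, 25 with libraries centred on their medians, 7 without the trend, 27 with the replicate block and 16 to 25 with a library left out. The count calls after busulfan were 162, and 77 with DESeq2 and 7 to 360 with a library left out (7 without wt busulfan replicate 1, 15 without wt busulfan replicate 2, 360 without dcat busulfan replicate 1 and 13 without dcat busulfan replicate 2). The paired fit changed no other call of a member than that of Crisp2-207.

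Of the genotype differences, Crisp2-201 tails after busulfan missed the threshold without the trend (58.1 nt), and ran from 53.7 to 62.6 nt with a library left out. After vehicle they ran from -25.6 to 9.76 nt. St6galnac2-201 tails ran from 8.06 to 36.2 nt after vehicle. Log2 ratios of reads after vehicle ran from -0.49 to 0.26 for Crisp2-201 (0.068 with transcripts pooled, an alternative chosen after seeing the data) and from -0.83 to 0.074 for St6galnac2-201. After busulfan Crisp2-201 gave -0.049 with RLE, -0.094 with filterByExpr, -0.047 with DESeq2 and -0.19 to 0.48 with a library left out, and Fscb-201 gave 2.26 to 2.79. None of these reversed values passed the threshold, and the cause was not tested.

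The busulfan-minus-vehicle tail difference with median tails was -131 nt (wt) and -71.1 nt (dcat) for Crisp2-201, -107 and -122 nt for Fscb-201, and -54.5 nt (wt) for St6galnac2-201. With libraries centred on their medians it was -82.8 and -17.2 nt, -72.9 and -70.9 nt, and -19.4 and -59.3 nt. With a library left out, log2 read ratios ran from -1.95 to -1.13 and -1.62 to -0.87 for Crisp2-201, -3.79 to -3.09 and -1.60 to -1.14 for Fscb-201, and -1.55 to -0.47 and -0.30 to 0.60 for St6galnac2-201, whose sign in dcat testes turned without dcat vehicle replicate 2 (0.60) or dcat busulfan replicate 2 (0.12). Without dcat vehicle replicate 2, the shortening of Crisp2-201 in dcat testes was -22.3 nt in place of -40.0 nt.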
